A study of Mus musculus with 6 samples.

Results

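The genes of the cytosolic and the mitochondrial ribosome were followed in invariant natural killer T (iNKT) cells of the mouse liver in which both copies of the transcription factor gene Ets1 and 1 copy of Tbx21 were targeted for deletion. They were chosen by gene symbol alone: symbols that begin with Rpl or Rps followed by a number, with the stalk genes Rplp0, Rplp1 and Rplp2 and with Rpsa, made up the cytosolic set, and symbols that begin with Mrpl or Mrps made up the mitochondrial set. These symbols, from the GENCODE M21 annotation, named 162 of the 12942 genes listed, 85 cytosolic and 77 mitochondrial. Of the cytosolic genes, 80 are annotated as protein-coding and 5 as pseudogenes (Rps3a2, Rps3a3, Rpl6l, Rps12l1 and Rps4l). Of the mitochondrial genes, 76 are protein-coding and 1, Mrpl23-ps1, is a pseudogene.

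RNA was sequenced from primary liver cells sorted for binding of a CD1d tetramer, which marks iNKT cells, and for a YFP reporter. Every mouse carried Cre expressed from Tbx21, the gene of the transcription factor T-bet, and a Rosa26-YFP allele that reports Cre activity (Control, genotype Tbx21Cre Rosa26-YFP+). The cKOHet mice carried these and floxed alleles of 2 genes, both copies of Ets1 and 1 copy of Tbx21 (Tbx21Cre Ets1F/F Tbx21F/+ Rosa26-YFP+). Each group held 3 libraries, numbered 1, 2 and 4. Both floxed genes were altered together in cKOHet, so the share of each in a difference cannot be told apart. Deletion acts only in cells that have expressed Tbx21. Age, and how many mice lie behind a library: not given in the sources used here. P-values below therefore measure the spread between these libraries, whose separate origin is stated only in the series' design text.

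A ribosome reads messenger RNA and joins amino acids into protein. The cytosolic ribosome has a small subunit, whose proteins are named Rps, that holds the mRNA, and a large subunit, whose proteins are named Rpl, that forms the peptide bond. Most mRNAs of its proteins belong to the TOP class: they begin with a C followed by a run of pyrimidines (C or T in the DNA), and mTORC1, the growth-signalling kinase complex, and Larp1 control their translation and stability through that tract. The mitochondrial ribosome is a separate machine, related to the bacterial one. Its proteins (Mrpl and Mrps) are encoded in the nucleus and imported, and it translates the few mRNAs of mitochondrial DNA, which encode core subunits of the respiratory chain.

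Sequences around the start site give examples of genes with and without the tract at the annotated first base. Shown here are 40 bases from the RefSeq promoter table (GRCm38.p6, the assembly of mm10), 5′ to 3′, of which 20 lie before the annotated first base of the transcript. Capitals mark the run of pyrimidines that begins with C at the first base or, where there is none, the first base alone. Rps6, Rps27, Rps10 and Rps18 are among the 13 of 60 cytosolic genes with the tract at that base. Rpl12 had the lowest fold change of the protein-coding cytosolic genes, and the 3 mitochondrial genes are among the 4 that passed the test. Rpl12, Mrpl52 and Mrps7 lack it at that base but have such a run within 10 bases of it.
Rps6, chr4:86857348-86857387, minus strand: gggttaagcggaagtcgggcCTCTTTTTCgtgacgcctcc
Rps27, chr3:90213629-90213668, minus strand: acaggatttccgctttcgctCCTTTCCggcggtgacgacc
Rps10, chr17:27635225-27635264, minus strand: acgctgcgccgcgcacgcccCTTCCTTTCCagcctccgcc
Rps18, chr17:33955646-33955685, minus strand: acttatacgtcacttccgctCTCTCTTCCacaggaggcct
Rpl12, chr2:32961692-32961731, plus strand: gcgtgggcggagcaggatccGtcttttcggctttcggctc
Mrpl52, chr14:54426889-54426928, plus strand: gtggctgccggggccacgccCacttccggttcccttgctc
Mrps5, chr2:127587406-127587445, plus strand: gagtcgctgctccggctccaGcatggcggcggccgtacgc
Mrps7, chr11:115604120-115604159, plus strand: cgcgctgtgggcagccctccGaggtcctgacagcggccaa

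A promoter sequence was found for 60 of the 85 cytosolic and 67 of the 77 mitochondrial genes. A C with at least 4 pyrimidines after it stood exactly at the annotated first base in 13 of the 60 cytosolic genes (21.7%), in 0 of the 67 mitochondrial genes and in 3.01% of 27025 genes of all kinds. The 13 were Rpl14, Rpl15, Rpl28, Rpl35, Rpl35a, Rpl38, Rplp2, Rps6, Rps10, Rps15a, Rps18, Rps21 and Rps27. With up to 10 bases allowed between such a run and the annotated base, the shares were 60%, 43.3% and 33.8%. Annotated starts can miss the true first base by a few nucleotides, so the exact share depends on the annotation.

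The groups were checked by Ets1, whose normalised count was 7391, 6255 and 7787 in Control 1, 2 and 4 and 462, 596 and 441 in cKOHet 1, 2 and 4, a log2 difference of -3.84 (SE 0.136). Tbx21 stood at 2434, 2504 and 2765 against 2173, 2316 and 2127, a log2 difference of -0.22 that did not pass the test (limma adjusted p = 0.196). Library totals of the deposited values ran from 4996523 to 5219483. Those values are normalised, so the read depth is unknown. Library 4 of each group had almost no Xist and carried Y-linked transcripts, while libraries 1 and 2 of each group were the reverse. The 10 iNKT1 markers summed to 52242, 48882 and 52793 in Control 1, 2 and 4. In cKOHet 1, 2 and 4 they summed to 42830, 43687 and 48034, each below every control. Of these markers 4 were called: Il2rb (log2 -0.72) and Cxcr3 (-0.51) lower, Zbtb16 (0.53) and Cd247 (0.37) higher. Markers of cells outside the gate were low: 8 hepatocyte markers summed to 222 to 417 in the controls and 266 to 640 in cKOHet, and 6 myeloid markers to 25.9 to 81.9 and 125.5 to 158, with Cd5l, Csf1r and Clec4f of the macrophage lineage called higher. Of 2 endothelial markers Stab2 stayed at 12.4 or below and Pecam1, which T cells also express, fell (log2 -2.16), and 2 erythroid and platelet markers summed to 1.14 to 7.35 and 8.28 to 33.2. The 5 B cell markers were not analysed here. The part of these cells in the results below was not tested.

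In cKOHet cells, mRNAs of the cytosolic ribosome took a smaller part of the library than in control cells. They made up 8.26%, 7.23% and 7.67% of all normalised counts in Control 1, 2 and 4 (7.72% ± 0.517, SD, n = 3) and 6.93%, 5.43% and 4.95% in cKOHet 1, 2 and 4 (5.77% ± 1.03, SD, n = 3). The groups did not overlap, and the log2 ratio of the mean sums was -0.42. The mitochondrial set held 0.229%, 0.244% and 0.243% in the controls (0.239% ± 0.00839, SD, n = 3) and 0.233%, 0.227% and 0.203% in cKOHet (0.221% ± 0.0159, SD, n = 3). Here cKOHet 1 lay above Control 1, and the log2 ratio of the sums was -0.11. Divided by the mitochondrial sum, the cytosolic sum was 36.0, 29.7 and 31.5 in the controls, against 29.7, 23.9 and 24.4 in cKOHet. These are shares of each library: whether the cells held less of these mRNAs, or whether fewer cells held as much, cannot be told apart in bulk RNA.

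**Figure D1:**
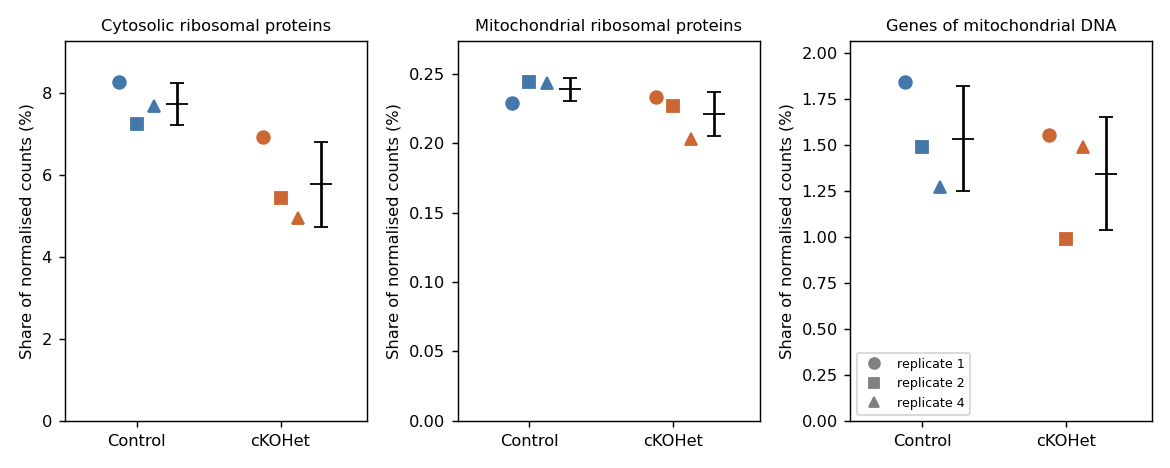
Share of all normalised counts (%) taken by the cytosolic ribosomal proteins, the mitochondrial ribosomal proteins and the genes of mitochondrial DNA in each library, with the mean and SD of 3 libraries beside each group (circle, square and triangle are replicates 1, 2 and 4). The cytosolic share is 7.23% or more in every control and 6.93% or less in every cKOHet library, while the other 2 sets overlap.

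Gene by gene, 38 of the 85 cytosolic genes fell in cKOHet and 0 rose, by limma's trended test on log2(value + 1) with adjusted p under 0.05 (56 lower and 1 higher at an unadjusted p under 0.05). Over all 11226 genes tested, 9.97% were called lower and 11.5% higher, and among the 1059 genes with a mean of at least 1000, the level of most cytosolic members, these shares were 17.1% and 18.2%. For 80 of the 85 the fold change was below 0. Its median was -0.41 on the log2 scale, with quartiles of -0.56 and -0.27, beside 0.007 for all genes. The values of the 2 groups did not overlap for 36 genes that were lower (42.4%, where 16.7% of all genes were so) and for 1 that was higher. Without the trend of variance on level in the test, which gives highly expressed genes a smaller expected variance, the same fold changes led to 5 calls.

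In the mitochondrial set 76 genes could be tested, since Mrpl23-ps1, at 9.35, 3.19 and 8.39 in Control and 3.03, 2.73 and 2.11 in cKOHet, was left out by the filter for low levels. Of these, 3 fell (Mrps35, Mrpl52 and Mrps5) and 1 rose (Mrps7), or 5.26%, where 21.4% of all genes were called and 19.9% of the 6259 genes with a mean of 50 to 500, the level of most members. The median fold change was -0.07 (quartiles -0.28 and 0.12), with 43 genes below 0 and 33 above. Groups that did not overlap were seen for 11 genes in the lower direction (14.5%) and for 4 in the higher, the latter beside 19.1% of all genes. The share of calls was below that of all genes in the mitochondrial set, and the share of lower calls was above it in the cytosolic set.

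**Figure D2:**
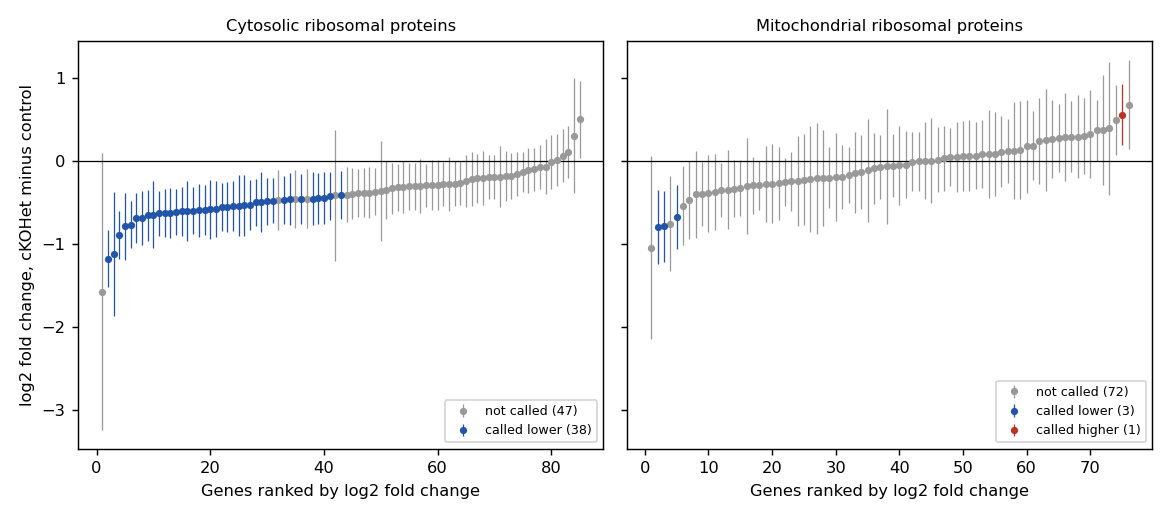
log2 fold change (cKOHet minus control) of each tested gene with its 95% interval, ranked within the 85 cytosolic (left) and the 76 mitochondrial genes (right), with called genes in blue (lower) and red (higher). Nearly the whole cytosolic set lies below 0, with a median of -0.41, while the mitochondrial set spreads about 0.

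Both cytosolic subunits took part. Among 48 protein-coding large-subunit genes, 21 fell and 47 had a fold change below 0, with a median of -0.39. Among 32 protein-coding small-subunit genes, 16 fell and 29 were below 0, with a median of -0.46. The 95% interval of the fold change lay below 0 for 55 of these 80 genes and above 0 for 1.

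Within the large subunit, all 4 genes of the lateral stalk fell (median log2 fold change -0.69). The stalk is the arm that recruits elongation factors. Rpl12 (chr2:32961559-32965345), which lies at its base, stood at 9342, 8314 and 9027 in the controls, against 5114, 3805 and 3093 in cKOHet. No cKOHet library came near the controls, and Rpl12 fell by 1.18 on the log2 scale (SE 0.161, limma adjusted p = 6.82e-05), the lowest fold change of any protein-coding cytosolic gene. Rplp1 (chr9:61913284-61914542), an acidic protein of the stalk's tip, read 6550, 5729 and 6645 against 4178, 3801 and 3144, a fall of 1.71-fold (log2 -0.77, SE 0.133, limma adjusted p = 0.000562). Its partner Rplp2 (chr7:141447370-141451585) read 4841, 4305 and 5247 against 3520, 3314 and 2675, a fall of 1.52-fold (limma adjusted p = 0.00401). Both tip proteins were lower in each cKOHet library than in any control. Rplp0 (chr5:115559467-115563727), on which those dimers sit, read 12282, 10568 and 12229 against 10113, 8432 and 7194 (log2 -0.46, limma adjusted p = 0.041). The gap between its groups was small, and the call was lost when any of 5 of the 6 libraries was left out.

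Other large-subunit genes fell by similar amounts. Rpl13 (chr8:123102350-123105244) varied most among the controls, at 4844, 6044 and 8104, and stood at 3626, 4514 and 2808 in cKOHet (log2 -0.79, SE 0.189, limma adjusted p = 0.0069). Rpl36 read 1815, 1930 and 2172 against 1508, 1151 and 1041 (log2 -0.69), and Rpl27 read 2745, 2405 and 2509 against 1913, 1640 and 1407 (log2 -0.64). In all 3 genes the groups were separate. Rpl38, known from mice in which its loss alters the translation of Hox mRNAs, read 1920, 1691 and 1804 against 1478, 1084 and 1028 (log2 -0.61, limma adjusted p = 0.0049). Rpl8, which lies near the peptidyl transferase centre, read 6726, 6081 and 7839 against 5201, 4751 and 4054 (log2 -0.56). Rpl19, whose protein reaches the small subunit through an intersubunit bridge, read 9710, 8012 and 8715 against 6961, 5791 and 5274 (log2 -0.56, limma adjusted p = 0.00935).

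Not all of the large subunit passed the test. Rpl3, a protein of the peptidyl transferase region, read 9412, 7684 and 8368 against 7514, 6153 and 5837. These groups did not overlap, yet the adjusted p of 0.0607 missed the threshold (log2 -0.39). Rpl5 and Rpl11, which with 5S ribosomal RNA form the particle that binds Mdm2 and so links ribosome assembly to p53, were not called. Rpl5 read 7873, 5924 and 6500 against 6842, 4478 and 4762 (log2 -0.35, limma adjusted p = 0.155), and Rpl11 read 4757, 4139 and 4301 against 4463, 3255 and 3184 (log2 -0.29, limma adjusted p = 0.168). For both, cKOHet 1 lay within the control range and the other 2 libraries below it. Around the exit of the peptide tunnel, 3 of 8 genes fell (Rpl17, Rpl19 and Rpl22), with a median of -0.32. That is 37.5%, where 43.8% of protein-coding large-subunit genes were called lower. At the other end of that list, Rpl31 read 2934, 2392 and 2303 against 3153, 2207 and 2351, a log2 difference of 0.01 with an interval from -0.30 to 0.32.

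In the small subunit, Rps16 (chr7:28350652-28353155) had the lowest fold change of the called protein-coding genes. It read 5978, 5297 and 5630 in the controls, against 3657, 2868 and 2632 in cKOHet, a fall of 1.86-fold (log2 -0.90, SE 0.135, limma adjusted p = 0.000171). All cKOHet values lay well below the controls. Rps6 (chr4:86854660-86857412), the substrate of S6 kinase that is widely used to read out mTORC1 activity, stood at 5351, 4632 and 5190 against 4121, 2938 and 3075 (log2 -0.60, limma adjusted p = 0.00604). Rps27 read 5597, 4608 and 4865 against 3852, 2907 and 3015 (log2 -0.63, limma adjusted p = 0.00327), and its transcript, per kilobase of principal transcript, was the most abundant of the set at 12002. Rps6 and Rps27, whose tracts are printed above, did not overlap between groups, and nor did Rps10, at 3554, 3014 and 3473 against 2694, 2317 and 1715 (log2 -0.60). Rps18, with a tract of similar length, read 7545, 5881 and 6143 against 6063, 4497 and 3822. Its log2 difference of -0.46 was not called (limma adjusted p = 0.0566), and cKOHet 1 lay above the lowest control.

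Rps13 read 4018, 3768 and 3944 against 3018, 2503 and 2186 (log2 -0.62), Rps9 read 8192, 6962 and 8176 against 6006, 4876 and 4296 (log2 -0.63), and Rps21 read 2440, 2100 and 2397 against 1860, 1334 and 1181 (log2 -0.69). These 3 genes were all called, with limma adjusted p of 0.0027, 0.00485 and 0.0038. Rpsa, also known as the laminin receptor, read 15311, 12822 and 14279 against 11880, 9968 and 9046 (log2 -0.46, limma adjusted p = 0.0359). Its groups were separate, but only just, and the call held in 2 of the 6 fits that each left out 1 library.

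Rps19, the gene most often mutated in Diamond-Blackfan anaemia, read 3838, 3209 and 3601 against 2834, 1965 and 2024, a fall of 1.58-fold (limma adjusted p = 0.00375). Of 10 listed genes mutated in that disease of red cell formation, 3 fell (Rps19, Rps10 and Rps24). That is 30%, where 46.2% of protein-coding cytosolic genes were called lower. All 10 had a fold change below 0, and the median was -0.34. Rps24 read 10985, 8690 and 9229 against 8808, 5003 and 5140, so cKOHet 1 overlapped the controls (log2 -0.65, limma adjusted p = 0.0223).

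Only 5 cytosolic members had a fold change above 0, and none was called. Rps27l, a p53-induced copy of Rps27, was the one member whose groups were separate in the higher direction, at 115, 137 and 89.9 in the controls, against 159, 138 and 184 in cKOHet (log2 0.50, SE 0.217, limma adjusted p = 0.125). Control 2 and cKOHet 2 were almost equal, so the separation rests on a difference of about 1 normalised count. Among the others were the pseudogene Rps3a3 (0.30), Rps25 (0.06) and Rpl31. Rps25 read 3575, 2824 and 2690 against 3898, 2747 and 2870, with overlap.

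Divergent copies of ribosomal genes were compared with their core partners. Rpl22 fell, from 2096, 1758 and 2038 to 1789, 1225 and 1329 (log2 -0.46, limma adjusted p = 0.0323), although cKOHet 1 was above Control 2. Its copy Rpl22l1, which Rpl22 is known to repress, read 385, 321 and 363 against 397, 254 and 298 (log2 -0.19, limma adjusted p = 0.486). The interval of that difference, from -0.56 to 0.17, holds the fold change of Rpl22, so the pair was not shown to differ. Rpl7 and its relative Rpl7l1 had log2 differences of -0.19 and -0.07, neither called. Rpl36a fell, from 1653, 1524 and 1524 to 1362, 996 and 1023 (log2 -0.49, limma adjusted p = 0.0145). Its retrocopy Rpl36al, which the symbol rule leaves out, read 637, 621 and 633 against 681, 467 and 556 (log2 -0.17, limma adjusted p = 0.466). Rps4x, the X-linked core gene, read 11108, 9023 and 9775 against 9057, 7176 and 8216 (log2 -0.29, limma adjusted p = 0.166). Rps4l was the least abundant member tested, at 8.26, 26.2 and 11.6 against 2.03, 17.7 and 1.10. Its log2 difference of -1.58 had an interval from -3.25 to 0.09 and was not called. Of 5 divergent copies tested with limma, 0 were called (1, Rps27l, at an unadjusted p under 0.05), with a median of -0.17.

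Reads of near-identical pseudogenes make some of these values uncertain, and how the authors handled reads with several matches is not stated. Of the protein-coding cytosolic genes, 52 had at least 1 pseudogene of their name in the table: 28 of them fell, with a median of -0.46. The 28 without one had 9 that fell and a median of -0.30. The 158 rows for such pseudogenes held 0.152%, 0.129% and 0.135% of the controls' counts and 0.133%, 0.100% and 0.085% of the cKOHet counts. Of 133 that could be tested, 6 were called lower and 0 higher, with a median of -0.36. Among the members, the pseudogene Rps3a2 was called lower (log2 -1.12, limma adjusted p = 0.0325) from 132, 105 and 345 against 98.7, 68.5 and 66.7. Control 4 alone was high, and without it the log2 difference was -0.61 with an adjusted p of 0.179. Its parent Rps3a1 read 8142, 6908 and 6572 against 7362, 5400 and 5565 (log2 -0.25, limma adjusted p = 0.273).

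**Figure D3:**
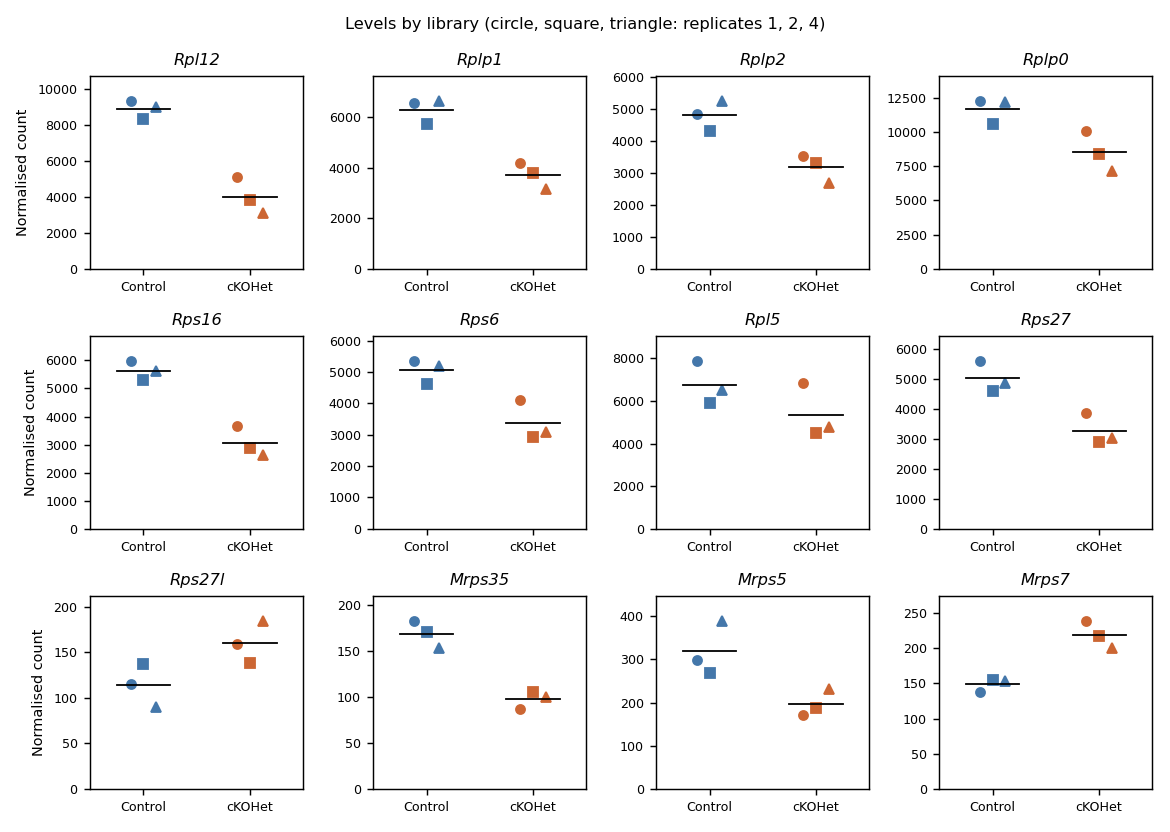
Normalised count of 12 members in each library (circle, square and triangle are replicates 1, 2 and 4, the line is the group mean, each axis starts at 0). Rpl12 at the upper left falls from 8314 or more to 5114 or less, Rpl5 overlaps between groups, and Rps27l and Mrps7 are higher in cKOHet.

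Libraries of 1 group differed from one another in a way that ran through the whole cytosolic set. Replicate 1 was the highest of the cKOHet libraries for 77 of the 80 protein-coding genes, and cKOHet 4 was the lowest for 53. Control 1 was the highest control for 58 genes and Control 2 the lowest for 61. cKOHet 1 reached or passed the lowest control in 46 of 80 genes, cKOHet 2 in 7 and cKOHet 4 in 6. The column codes of Control 1 and cKOHet 1 each join 2 library names (W1 with W3, H1 with H3) where the others hold one, and the labels do not say why. Since both groups have such a library, this joining of names is balanced between them, and its part in the spread was not tested. In the sample titles, Control 4 and cKOHet 1 are labelled iNKT and the other libraries iNKT1. The labels do not explain this difference, and its part in the spread was not tested either.

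Leaving out cKOHet 1 raised the number of cytosolic genes called lower from 38 to 60 and moved the median to -0.56. Leaving out Control 1, Control 4, cKOHet 2 or cKOHet 4 lowered it to 19, 21, 21 and 19, and leaving out Control 2 to 33. In each of these fits the set's median stayed between -0.56 and -0.31 and no cytosolic gene was called higher. The 16 members called in all 6 fits were Rpl8, Rpl12, Rpl13, Rpl27, Rpl36, Rpl38, Rplp1, Rplp2, Rps6, Rps9, Rps10, Rps13, Rps16, Rps19, Rps21 and Rps27. In the 4 libraries with high Xist alone, 8 cytosolic genes were called lower, with a median of -0.31.

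**Figure D4:**
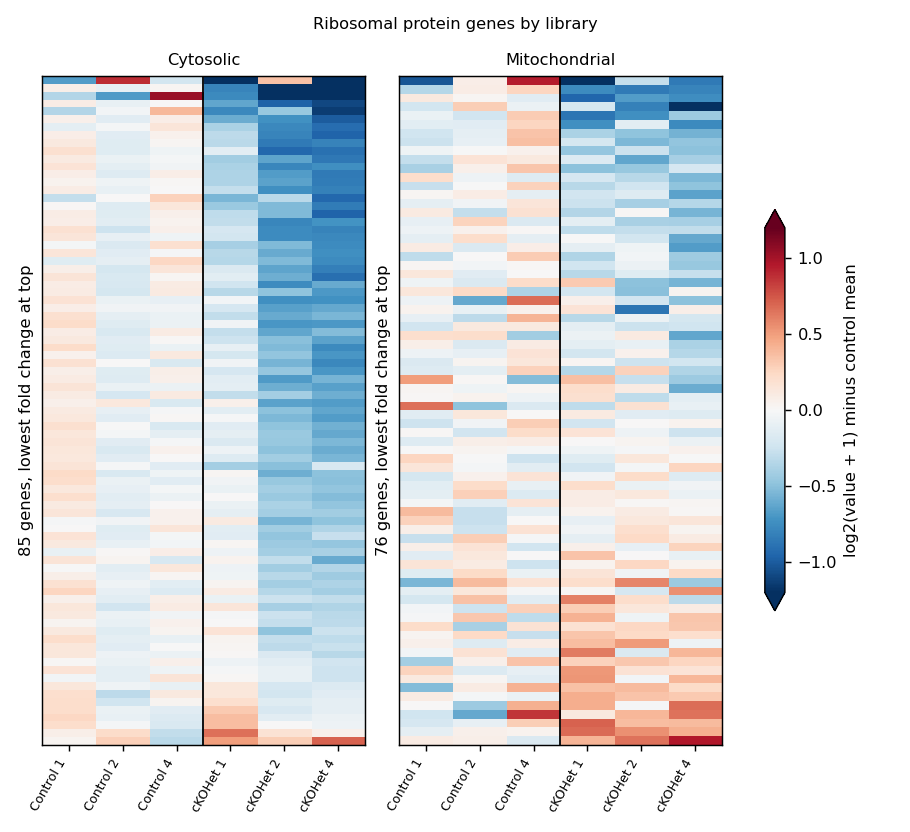
log2(value + 1) of each tested member minus its control mean, in the 6 libraries (columns), with genes ranked by fold change from lowest at the top (85 cytosolic on the left, 76 mitochondrial on the right; blue is lower, red is higher, colours end near 1.2). The cytosolic columns of cKOHet 2 and cKOHet 4 are blue nearly throughout and that of cKOHet 1 is paler, while the mitochondrial columns hold both colours.

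The 4 called mitochondrial genes code for parts of both subunits. Mrps35 (chr6:147042764-147073991), a small-subunit protein that bacteria lack, read 183, 171 and 153 in the controls, against 86.6, 106 and 99.9 in cKOHet. The lowest control was above each cKOHet value, and the log2 difference was -0.79 (SE 0.200, limma adjusted p = 0.00992). Mrpl52 (chr14:54426909-54429756), of the large subunit and also without a bacterial relative, read 138, 188 and 210 against 104, 97.2 and 101 (log2 -0.80, SE 0.210, limma adjusted p = 0.0123). Its cKOHet values were close together and its controls were not. Mrps5 (chr2:127587222-127606829), the relative of bacterial S5, a protein of the decoding region, read 298, 268 and 389 against 171, 188 and 232 (log2 -0.68, SE 0.182, limma adjusted p = 0.0136). Mrps7 (chr11:115603925-115608036), the relative of bacterial S7, which helps to start assembly of the small subunit's head, read 137, 155 and 153 against 239, 217 and 200. It was the one member of either set that rose, by 1.47-fold (log2 0.55, SE 0.173, limma adjusted p = 0.0329).

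None of these 4 calls held in all fits that left out a library. Mrps35 was lost without Control 1 (limma adjusted p = 0.0512), Mrpl52 without Control 4 (0.0704), and Mrps5 without Control 4 (0.0814) or cKOHet 1 (0.0541). Mrps7 was called in 1 of the 6 fits, that without cKOHet 4, with adjusted p between 0.0368 and 0.115. The fold changes kept their direction in each of these fits.

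Members near the threshold lay on both sides of 0. Mrpl22 read 66.4, 65.4 and 55.0 against 82.6, 98.3 and 122 (log2 0.67, limma adjusted p = 0.0736), and Mrpl40 read 123, 132 and 173 against 231, 183 and 184 (log2 0.49, limma adjusted p = 0.098). Mrpl22 belongs to the exit of the mitochondrial tunnel. Mrpl17 read 127, 183 and 142 against 129, 84.3 and 61.5, where cKOHet 1 matched Control 1 (log2 -0.76, limma adjusted p = 0.0563). Mrpl44, an RNase III-like protein of the large subunit, read 177, 184 and 190 against 133, 154 and 130 (log2 -0.40, limma adjusted p = 0.133). Its groups did not overlap.

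Mitochondrial subunits were taken from the symbol, Mrpl for large and Mrps for small, which need not be the subunit that holds the protein. By symbol, the mitochondrial large subunit had 1 gene lower and 0 higher of 47, with a median of -0.06. For the small subunit, 2 were lower and 1 higher of 29, with a median of -0.14. Members with a relative in the bacterial ribosome (45 tested) had 1 lower and 1 higher with a median of -0.14. The 31 without a listed relative had 2 lower and a median of 0.00. For the stalk, where the cytosolic set stood lowest, the mitochondrial genes Mrpl10, Mrpl11 and Mrpl12 were not called. Mrpl10 read 530, 511 and 528 against 442, 497 and 380 (log2 -0.26, limma adjusted p = 0.21), and Mrpl11 read 114, 126 and 171 against 104, 96.3 and 90.6 (log2 -0.48, limma adjusted p = 0.153). Both had separate groups. Mrpl12, which also binds mitochondrial RNA polymerase, overlapped fully at 242, 230 and 242 against 276, 255 and 157 (log2 -0.09). Of 7 genes at the mitochondrial tunnel exit, 0 were called by limma (median -0.21), with 1 lower and 1 higher at an unadjusted p under 0.05. Mrps18a, Mrps18b and Mrps18c, 3 related genes with small-subunit symbols, had log2 differences of -0.40, 0.12 and -0.20, none with an unadjusted p under 0.05.

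Per kilobase of principal transcript, the median level of the cytosolic members was 4263, that of the mitochondrial members 86.7 and that of all genes 49.1. The cytosolic range ran from 11.8 (Rps4l) to 10059 (Rpl13a), 10104 (Rps18) and 12002 (Rps27), and the mitochondrial range, among tested genes, from 16.6 (Mrpl17) to 295 (Mrpl30), 334 (Mrpl52) and 365 (Mrps21). As a description across the 80 protein-coding cytosolic genes, which share the same libraries, the fold change went with the log2 mean value at r = -0.41 (rho = -0.24), with GC content at r = -0.27 (rho = -0.29) and with log2 transcript length at r = 0.00 (rho = 0.03). Across 76 mitochondrial genes, r was between -0.11 and -0.10 for each. Protein-coding cytosolic members on chromosome 7, where 14 of the 80 lie, had 9 called lower (64.3%, where 46.2% of the 80 were) and a median of -0.54. The 4 X-linked members, Rps4x, Rpl10, Rpl39 and Rpl36a, had 1 called lower and a median of -0.29. Members on other chromosomes were not summarised, and an effect of chromosome was not tested.

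Sequences that the ETS family binds are common in both sets. CCGGAAG, an ETS core motif, was searched on both strands from 250 bases before to 50 bases after the start. It was found in 25 of 60 cytosolic (41.7%) and 24 of 67 mitochondrial promoters (35.8%), beside 9.93% of all 27025 promoters and 23.1% of those of tested genes. The cytosolic genes with the motif had a median log2 fold change of -0.39 and 9 of 25 called lower, and the 35 without had a median of -0.46 and 20 called lower. In the mitochondrial set the medians were -0.21 with and -0.05 without. A match is a run of letters and does not show that Ets1 bound there. Rpl19 and Mrpl52, both called lower, show the motif in each set, as 140 bases that end 20 bases into the transcript (RefSeq, GRCm38.p6), with the motif, read from the other strand as CTTCCGG, in capitals.
Rpl19, chr11:98026590-98026729, plus strand: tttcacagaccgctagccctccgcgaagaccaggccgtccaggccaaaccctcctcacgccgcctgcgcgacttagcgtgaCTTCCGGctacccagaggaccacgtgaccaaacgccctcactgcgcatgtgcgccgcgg
Mrpl52, chr14:54426789-54426928, plus strand: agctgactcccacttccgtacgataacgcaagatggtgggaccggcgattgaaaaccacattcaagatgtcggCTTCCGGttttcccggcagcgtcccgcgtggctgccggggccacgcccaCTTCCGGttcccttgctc

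Other motifs differed in share between the sets. TCTCGCGA, searched on both strands, was in 11 of 60 cytosolic promoters (18.3%), in 1 of 67 mitochondrial promoters (1.49%) and in 1.13% of all. The YY1 motif AAGATGGC was in 10% of the cytosolic and 17.9% of the mitochondrial promoters, beside 3.19% of all. The NRF1 motif GCGCATGC was in 5% and 10.4%, beside 3.05%, and the E-box CACGTG, which Myc binds, in 10% and 7.46%, beside 8.09%. Among promoters of tested genes the shares were higher, at 2.85% for TCTCGCGA, 6.03% for YY1, 6.68% for NRF1 and 12.2% for the E-box, so that the cytosolic shares of NRF1 and the E-box lay below those of tested genes. The 13 cytosolic genes with the TOP tract at the first base had a median of -0.46 with 6 called lower. The 47 without that tract had a median of -0.45 with 23 called lower. With up to 10 bases allowed, the 36 with a tract had a median of -0.46 with 19 called lower, and the 24 without a median of -0.37 with 10 called lower.

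Ribosome subunits that the symbols leave out also had fold changes below 0. Fau, which encodes a ubiquitin-like protein fused to Rps30, fell from 4652, 4037 and 4644 to 4055, 3209 and 2894 (log2 -0.40, limma adjusted p = 0.048), with cKOHet 1 above Control 2. The Fau call was lost under 11 of 23 other settings, among them 5 of the 6 that left out a library (all but cKOHet 1). Rack1, a signalling scaffold on the small subunit, read 9411, 7384 and 8198 against 7833, 6404 and 5738 and was not called (log2 -0.33, limma adjusted p = 0.136). Of 9 such genes, 2 fell (22.2%, beside 9.97% of all genes tested), all 9 had a fold change below 0 and the median was -0.33.

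Other translation and growth genes, listed because their mRNAs are known as TOP mRNAs, had a median fold change nearer to 0. In the promoter search, 3 of the 14 with a sequence had the tract at the annotated first base and 7 within 10 bases. Of 20 listed, 4 fell (20%), near the 17.1% called lower among all genes with a mean of at least 1000. In this list 18 had a fold change below 0 and the median was -0.20. Npm1, a nucleolar chaperone of ribosome assembly, read 3903, 3706 and 3465 against 3074, 2301 and 2578 (log2 -0.49, limma adjusted p = 0.0123). The RNA-binding protein Cnbp read 2776, 2669 and 2866 against 2279, 1904 and 1821 (log2 -0.48, limma adjusted p = 0.00926). Both were separate between groups. Tpt1 (log2 -0.48) and the elongation factor subunit Eef1g (log2 -0.43) were also called, and these calls were lost under 8 and 6 of the 23 other settings. Of 6 noncoding host transcripts with a TOP tract, limma called 0, with 0 at an unadjusted p under 0.05, and Gas5 read 701, 566 and 494 against 666, 386 and 377 (log2 -0.34, limma adjusted p = 0.268).

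Most of the listed regulators of these transcripts had fold changes above 0. Of 12 genes for mTORC1, its regulators, its substrates and the Larp proteins, 9 had a fold change above 0, and the median was 0.38. The list pools activators of mTORC1 such as Rheb with inhibitors such as Tsc1 and Tsc2. The median therefore gives no direction of mTORC1 activity. Rheb, the GTPase that activates mTORC1, was the one called (8.33% of the list, where 11.5% of all genes tested were called higher). It read 284, 299 and 301 against 409, 453 and 342 (log2 0.44, limma adjusted p = 0.0464). That call was lost under 15 of 23 other settings. Eif4ebp2, a repressor of cap-dependent translation, read 693, 738 and 721 against 439, 556 and 677 (log2 -0.39, limma adjusted p = 0.0829). It was not called here but was called lower under 7 of the other settings. The related repressor Eif4ebp1 went the other way, at 50.8, 31.7 and 31.8 against 59.4, 78.9 and 58.3 (log2 0.79, limma adjusted p = 0.0923). Its groups were separate, but Eif4ebp1 was not called either.

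On the mitochondrial side, related lists differed in direction. Of 12 translation factors limma called 0 (median 0.04), with 1 at an unadjusted p under 0.05. Of 23 assembly genes, 13.0% were called, where 21.4% of all genes tested were. Among them the helicase Ddx28 rose, at 84.8, 83.4 and 88.9 against 122, 241 and 148 (log2 0.92, limma adjusted p = 0.0148). Rbfa, a ribosome-binding factor, fell from 239, 381 and 307 to 189, 145 and 88.6 (log2 -1.17, limma adjusted p = 0.00331), and the GTPase Noa1 fell from 147, 145 and 144 to 75.6, 101 and 107 (log2 -0.63, limma adjusted p = 0.0494). For these 3 the groups were separate, but the Noa1 call was lost under 13 of 23 other settings, among them 5 of the 6 that left out a library (all but cKOHet 4), and the Ddx28 call under 4, among them that without cKOHet 2. Of 6 genes for transcription of mitochondrial DNA limma called 0, and Tfam, which packages that DNA, read 349, 305 and 303 against 248, 233 and 239 (log2 -0.41, limma adjusted p = 0.0616), the 1 with an unadjusted p under 0.05. The 13 protein-coding genes of mitochondrial DNA, the templates of the mitochondrial ribosome, all had fold changes below 0 with a median of -0.25, and limma called 0 (1 at an unadjusted p under 0.05). Their share of the library was 1.84%, 1.49% and 1.27% in the controls, against 1.55%, 0.989% and 1.49% in cKOHet, with overlap.

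**Figure D5:**
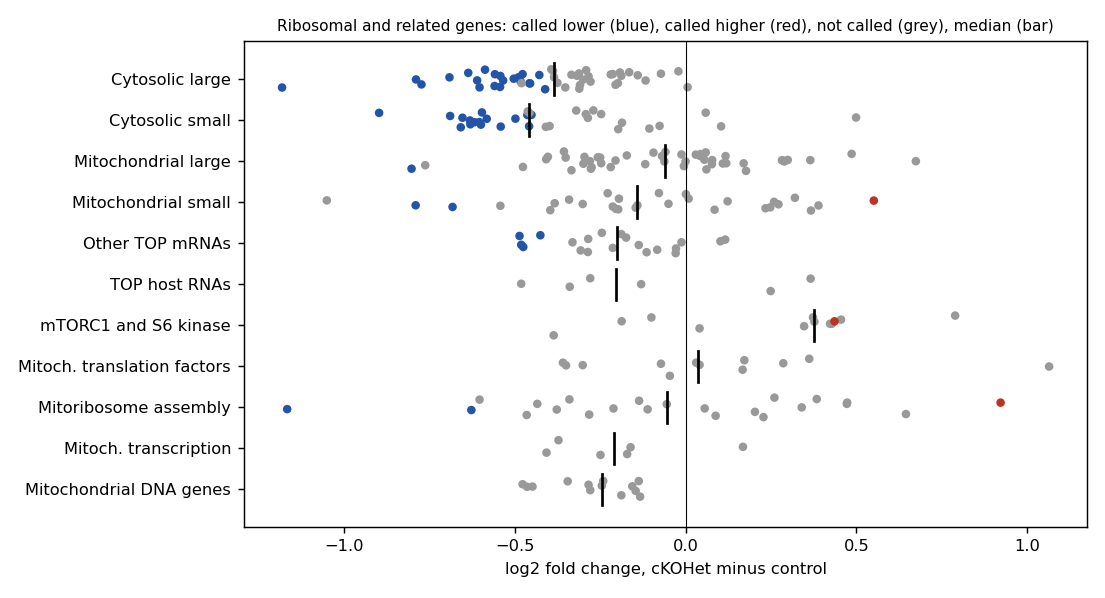
log2 fold change (cKOHet minus control) of each protein-coding member and of related gene lists, 1 point per gene, with called genes in blue (lower) and red (higher) and the median as a black bar. Medians are -0.39 and -0.46 for the cytosolic subunits, -0.06 and -0.14 for the mitochondrial ones (assigned by symbol) and 0.38 for the mTORC1 and S6 kinase genes. That last list pools activators and inhibitors of mTORC1.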

How the data were processed

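Per the file headers, the deposited table holds normalised HTSeq counts per Ensembl gene, a signal made by the authors. Per the submitters' processing notes, the build was mm10 and the tools Trimmomatic 0.33, STAR, DESeq2 and HTSeq 0.6.1. The settings, the method of normalisation, the strand setting and the treatment of reads with several matches were not given in the sources used here. Values are not whole numbers and reads could not be recovered, so no count model was run. Symbols came from GENCODE M21, which named 12870 of 12942 identifiers.

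Genes reaching 10 in 3 or more of the 6 libraries (11226) were tested on log2(value + 1) with limma 3.58.1 in R 4.3.3, by a moderated test with a variance trend, cKOHet minus Control, 3 libraries each. P-values were adjusted by Benjamini and Hochberg over all genes, and a gene was called at 0.05. Because 1 was added before taking log2, fold changes of low genes are understated. The test was checked on simulated data. The members and lists were chosen with earlier results of these data known. Genes named are the 15 with the smallest adjusted p in each set, those that failed the filter, the 3 highest and lowest per kilobase, the stalk, 5S and copy lists with core partners, Rps6, Rpsa, and up to 4 per other list; other genes were named after their values were seen. Results for some genes are not reported here.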

Additional observations from a re-analysis of the deposited data

How the results depend on the processing

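Under 23 other settings the median fold change of the cytosolic genes stayed below 0, and no setting called more cytosolic genes higher than 2. The number called lower was 5 without the variance trend, 17 at a threshold of 0.01, 8 in the libraries with high Xist alone (a setting chosen after seeing the data) and 19 to 60 when 1 library was left out. With a correction for GC content and length, 1 cytosolic gene was called higher (2 with the replicate block as well), and the mitochondrial set had 7 called genes, 3 of them higher (the same with the block). Mitochondrial calls were 1 (1 lower, 0 higher) at 0.01, 2 (0 higher) in the high-Xist libraries, and 1 to 4 (1 to 4 lower, 0 to 1 higher) without 1 library, with 0 higher after upper-quartile scaling. Over the whole table, genes called numbered 1476 at 0.01, against 2407.

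The replicate numbers were checked for pairing: deviations of same-numbered libraries correlated at 0.0917, 0.0878 and 0.0549 (numbers 1, 2 and 4). These values are small, but each library correlated best with its own number. Both libraries numbered 4 had low Xist, and both numbered 1 had joined column codes. Whether the numbers pair the libraries was not settled, and the main fit did not use them. With the replicate as a block, 49 cytosolic genes were called lower, all 38 among them, and the genes called numbered 2412 in all.

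Genes that changed sign were never called: Mrpl30 (-0.002, upper quartile), Mrpl12 (0.035) and Mrps21 (0.072) with GC and length correction, alone or with the block, and in the high-Xist libraries Mrpl12 (0.169), Mrpl47 (0.003), Mrps18b (-0.096) and Rpl7l1 (0.018). Without 1 library, values ran from -0.248 to 0.156 for Mrpl12, -0.04 to 0.184 for Mrpl30, -0.088 to 0.287 for Mrps18b, -0.404 to 0.018 for Mrps18c and -0.231 to 0.03 for Rpl7l1. The cause was not tested. With depth unknown, what it limits cannot be stated.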
